A study of Homo sapiens with 12 samples.

Results

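Hs294T and WM9 cells made resistant to vemurafenib together with cobimetinib were compared with each other. These 6 libraries, 3 of resistant Hs294T and 3 of resistant WM9, were chosen by their labels from the 12 libraries of the series. Both are human lines from metastatic melanoma, the cancer of pigment cells, and the labels give both the same BRAF genotype, p.Val600Glu. The resistant cells of each line had been adapted to stepwise higher concentrations of both drugs, ending at 0.4 µM of vemurafenib and 0.4 µM of cobimetinib. The other 6 libraries, 3 of each line, came from control cells given only the solvent DMSO, and they serve here as the reference without the drugs. All cells were grown in the same serum-containing medium, and the labels call the replicates biological without saying whether a resistant line is a clone or a pool.

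Vemurafenib blocks mutant BRAF, a kinase that keeps the growth signal from RAF through MEK to ERK switched on in many melanomas. Cobimetinib blocks MEK, the next kinase of that chain, and the drugs are given together because a block at a single step is often bypassed. Melanoma cells are known to escape the combination by routes that differ from tumour to tumour, among them renewed ERK signalling, use of receptor kinases and a change of the pigment-cell programme. A direct comparison of resistant lines addresses how far their transcriptomes differ under the same final drug concentrations.

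Each value is a read count per feature, that is, per row of the table. No gene name or identifier stands beside the rows, so features go by their row number below the header, no gene or pathway could be assigned, and the melanocytic identity of the cells was not checked by markers. Resistant libraries held between 17479623 counts (WM9 resistant 1) and 22561406 counts (WM9 resistant 2). Of 78932 rows, 18615 passed the low-count filter and were tested. CPM are counts scaled to library size with trimmed mean of M-values (TMM) factors, which ranged from 0.746 to 0.986 in WM9 resistant and from 0.956 to 0.997 in Hs294T resistant libraries. In bulk RNA, fewer cells of a type and less RNA per cell cannot be told apart. Line, separate adaptation to the drugs and separate culture cannot be told apart in this comparison either.

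Hs294T resistant replicates 2 and 3 were close to a repeat of the same library. Their counts differed by a mean chi-square of 3.06 per feature, where sampling noise alone gives about 1, and by 36.2 and 33.0 between replicate 1 and each of them. Pairs of WM9 resistant libraries gave 85.9 to 135. Accordingly, Hs294T resistant libraries varied less among themselves, with a median SD of log2 CPM of 0.167 over 9287 features at 10 CPM or more, against 0.362 in WM9 resistant libraries. All 6 were kept as labelled. The fit pools the spread within the 4 groups of all 12 libraries, controls included. The p-values therefore rest on that pooled spread, which may be partly technical.

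The resistant lines differed in a large part of the measured transcriptome, in nearly equal numbers each way. Higher in Hs294T resistant than in WM9 resistant libraries were 3859 features, 20.7% of those tested, and 4044 features or 21.7% were lower (n = 3 a group; quasi-likelihood F test of edgeR, with a threshold of 0.05 on the Benjamini-Hochberg adjusted p). Together these made up 42.5% of tested features. Of the higher features 3027 (16.3% of those tested) differed at least 2-fold, 1673 at least 4-fold and 1065 at least 8-fold. Of the lower features these numbers were 3085 (16.6%), 1454 and 860. The median log2 difference was 1.72 among higher and -1.54 among lower features, and the upper decile of the former was 5.65 and the lower decile of the latter -4.89.

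Which direction held more features depended on the scaling. Upper-quartile factors moved the median log2 difference of all features by 0.109 and gave 4331 higher and 3610 lower, while relative-log-expression factors gave 3880 and 4014. Counted past that shift, 3087 higher and 2956 lower features differed at least 2-fold under upper-quartile factors. A test against a 2-fold difference, which asks more than a difference from 0, called 1748 higher and 1778 lower, 18.9% of features. With the near-identical Hs294T resistant libraries summed to 1, and the like pair of WM9 controls too, 2967 were higher and 2944 lower.

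Many of the differences could be read from the libraries without a model. All 3 Hs294T resistant libraries lay above or all 3 lay below the WM9 resistant libraries in 10010 features, 53.8% of those tested, 5015 above and 4995 below. Of these, 7621 were called and 2389 were not. Between the control groups this share was 22.8%. A random order of 3 against 3 libraries gives a share of 0.1. It gives more where libraries of a group are nearly identical, as in Hs294T resistant and WM9 control. In 1444 features every Hs294T resistant library was at least 2-fold above every WM9 resistant library, with at least 1 CPM in the higher group, and in 1497 features the reverse held. These are 7.76% and 8.04% of tested features, and between the control groups 1.28% were separated so in either direction. Separation of at least 8-fold in all 9 library pairs was seen in 583 features higher and 448 lower in Hs294T, against 35 in either direction between the controls.

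For part of the transcriptome the resistant lines were shown to be alike within 2-fold. In 4539 features, 24.4% of those tested, the 95% interval of the difference between the resistant groups lay wholly within 2-fold. Of these, 144 were called at that small size. At the same bound, the test against a 2-fold difference called 18.9% of features. The share with an interval within 2-fold varied with abundance, from 0.799% of features below 1 CPM to 40.9% from 10 to 100 CPM. Of the 10712 features not called, 6317 had an interval that reached past 2-fold or none, so for them neither likeness nor difference was shown. Among the features not called, 1138 had an estimate of at least 2-fold, 664 higher and 474 lower in Hs294T. The 59 features for which no interval could be computed had 0 counts in all 6 resistant libraries.

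**Figure D1:**
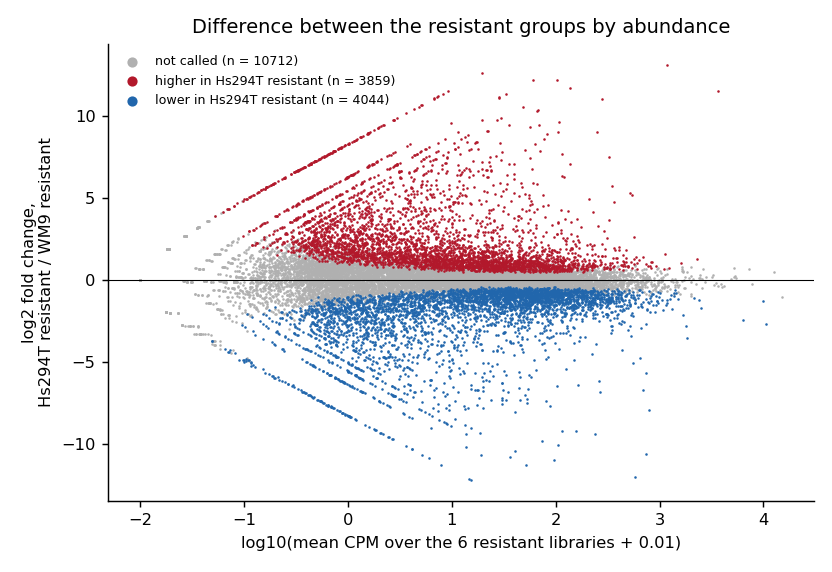
Log2 fold change of Hs294T resistant over WM9 resistant libraries (y axis) against log10 of the mean CPM of the 6 resistant libraries plus 0.01 (x axis), 1 point for each of 18615 features. Red points are the 3859 called higher, blue points the 4044 called lower and grey points the 10712 not called. At the right, blue points outnumber red ones, and the diagonal streaks at the left are features with counts in a single group.

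The balance of directions changed with abundance. Of the 2373 features that averaged 100 CPM or more over the resistant libraries, 288 were higher in Hs294T and 683 lower, and 40.9% were called. Of these, 148 and 449 differed at least 2-fold. From 10 to 100 CPM, 1296 were higher and 1629 lower of 6632, or 44.1% called. From 1 to 10 CPM the balance lay the other way, with 1502 higher and 1189 lower of 5544, or 48.5% called. Below 1 CPM, 773 were higher and 543 lower of 4066, or 32.4% called. The excess of lower features at 100 CPM or more was kept under upper-quartile factors, with 371 higher and 602 lower, whereas from 10 to 100 CPM it was turned to 1560 higher and 1434 lower. Leaving out Hs294T resistant 2 or Hs294T resistant 3 reduced the higher features at 100 CPM or more to 166 each, beside 536 and 546 lower. The standard error of a log2 difference also varied with abundance, with a median of 0.683 below 1 CPM and 0.254 from 10 to 100 CPM. Below 1 CPM only large differences could therefore be called, and 32.3% of features were called at least 2-fold apart there, against 43.8% from 1 to 10 CPM, 26.7% from 10 to 100 CPM and 25.2% at 100 CPM or more.

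In terms of reads, the resistant lines were compared by the part of a library that would have to be moved between features to turn 1 library into another. Between the resistant groups, the share of counts placed on different features was 24.1% to 27.5% over the 9 library pairs, with a median of 26.1%. Within Hs294T resistant libraries it was 2.63% to 9.55% and within WM9 resistant libraries 12.4% to 17.8%, so every value between the groups lay above every value within them. Between the control groups it ranged from 9.67% to 25.5%, with a median of 12.1%. Of 45405 rows with a count in the resistant libraries, 76 held 25% of the difference between the group means, 497 held 50% and 1911 held 75%. The counts themselves were concentrated too. The 100 most abundant features held a mean of 23.28% of counts in Hs294T resistant and 24.18% in WM9 resistant libraries. Rows not tested held 0.118% to 0.199% of the counts. Whether the difference was more concentrated than the counts was not tested.

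The most abundant transcripts were largely common to the resistant lines. Of the 10 most abundant features of each group 8 were the same, and of the 100 most abundant 68 were, against 7 and 87 between the control groups. Of the 12 features in either top 10, 1 was called higher and 3 lower in Hs294T. The 10 most abundant features held 6.95%, 7.70% and 7.95% of the counts in Hs294T resistant libraries and 10.2%, 8.02% and 8.31% in WM9 resistant libraries. All 3 Hs294T values lay below the WM9 values (exact permutation test, two-sided, p = 0.1, the smallest that 3 against 3 can give). With the 50 most abundant features the groups overlapped, at 17.44% ± 0.541 and 17.98% ± 2.29 (SD, n = 3; exact permutation test, two-sided, p = 0.9).

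The features named below were taken by a rule of size. In each direction it names the called feature with the largest fitted fold change and the one with the largest difference in mean CPM. Both had no overlap between the groups and at least 10 CPM in the higher one. The table gives no gene for any of them, so their function is not known here.

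The feature row71214 was abundant in resistant Hs294T cells alone. It measured 2428, 2365 and 2225 CPM in the Hs294T resistant libraries and 0.691, 0.135 and 0.0569 CPM in the WM9 resistant libraries. The WM9 controls held 3.49, 5.53 and 4.98 CPM and the Hs294T controls 2.44, 6.03 and 3.75 CPM. The controls of both lines thus lay between the resistant groups, far closer to WM9, and every WM9 resistant library lay below every control. The log2 difference between the resistant groups was 13.13 (SE 0.64, edgeR adjusted p = 2.07e-09). The WM9 resistant libraries held 13 counts in all and the Hs294T resistant libraries 136964, a ratio of 9513 after scaling (95% interval 5563 to 17870, for counting error only). Of those 13 counts 9 came from WM9 resistant 1, and without that library the log2 difference was 14.42.

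The feature row48063 showed the largest gain in absolute level in Hs294T. Its values were 9055, 6121 and 6504 CPM in Hs294T resistant libraries, where it ranked 4th in abundance, and 3.00, 0.315 and 4.09 CPM in WM9 resistant libraries. The controls ranged from 16.8 to 21.9 CPM in WM9 and from 5.08 to 21.3 CPM in Hs294T. As with row71214, no WM9 resistant library reached the lowest control, and no control came near the Hs294T resistant libraries. The log2 difference was 11.55 (SE 0.875, edgeR adjusted p = 1.11e-07). It was 10.97 without WM9 resistant 2 and 12.20 without WM9 resistant 3. The feature alone held 0.706% of the counts of Hs294T resistant libraries.

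The feature row75529 was not detected in resistant Hs294T cells. It had 0 counts in all 3 Hs294T resistant libraries and 36.6, 21.3 and 32.8 CPM in the WM9 resistant libraries. Control libraries held 0.756, 0.989 and 0.758 CPM in WM9 and 0.178, 0.377 and 0.998 CPM in Hs294T. All 6 controls thus had few counts, from 4 to 22. Against a floor of 3 counts over the group, or 0.0513 CPM, the level in Hs294T resistant libraries was at least 563.3-fold lower (edgeR adjusted p = 1.55e-07). The fitted log2 difference depends on the prior count and is no bound.

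The feature row63716 was abundant in both resistant groups and nearly absent from the controls, so here the resistant lines differed in degree. It measured 27937, 17350 and 9943 CPM in WM9 resistant libraries, where it was the feature of rank 2, and 3263, 2998 and 2333 CPM in Hs294T resistant libraries, where it had rank 23. In the controls it lay between 1.51 and 2.69 CPM. The WM9 resistant libraries spread widely around their mean of 18410 ± 9044 CPM, yet each lay above all Hs294T resistant libraries, with a mean of 2865 ± 479 CPM (SD, n = 3 each). The log2 difference was -2.68 (SE 0.37, edgeR adjusted p = 3.56e-05). It held 1.53% of the counts of WM9 resistant libraries.

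**Figure D2:**
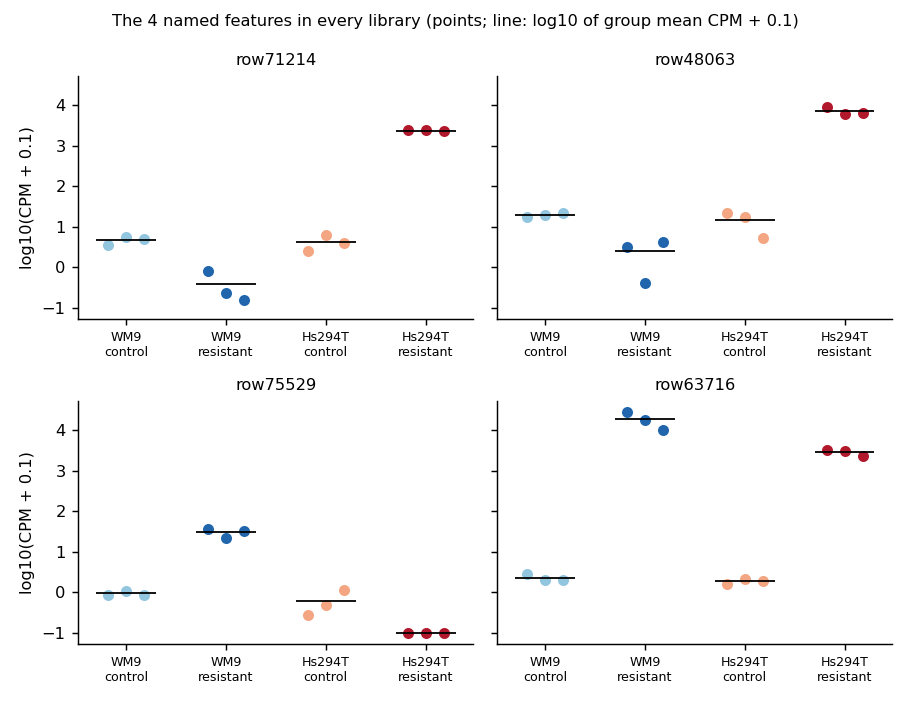
Log10 of CPM plus 0.1 (y axis) of the 4 named features in each of the 12 libraries, by group (x axis), with a point for each library and a line at the group mean. The upper panels show row71214 and row48063, high only in Hs294T resistant libraries, and the lower panels row75529, high only in WM9 resistant libraries, and row63716, high in both resistant groups and highest in WM9.

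Features that were on in a single resistant line were counted next. A feature was on in a group when each library had 10 CPM or more, and off when none had over 1 CPM. On in Hs294T and off in WM9 resistant libraries were 140 features, 0.752% of those tested, and the reverse held for 85 or 0.457%. Between the control groups 4 features, or 0.0215%, were on in a single line. The 140 features had means of 10.9 to 2339 CPM in the on group, with a median of 24.4, and 17 reached 100 CPM. The 85 features had means of 11.9 to 1171 CPM, with a median of 27.3, and 10 reached 100 CPM.

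The controls placed these features in different classes. Of the 140 on in resistant Hs294T, 43 were off in all 6 control libraries, so that resistant Hs294T cells were the group that had them. A further 37 were on in all 6 controls, so that resistant WM9 cells were the group without them. The other 60 had controls between the cutoffs or mixed. Of the 85 on in resistant WM9, 30 were off and 15 on in all 6 controls, and 40 lay between or were mixed. In 6 of the 140 and 4 of the 85 the off group had 0 counts in all 3 libraries.

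The difference between the resistant lines was then set beside that between their controls, which share no library with it. Hs294T control and WM9 control libraries differed in 719 features, 3.86% of those tested, 390 higher and 329 lower in Hs294T (n = 3 a group; same edgeR fit and threshold), and 3.5% were called at least 2-fold apart. That number is sensitive to single libraries. It fell to 132 and 141 without WM9 control 2, to 156 and 153 without WM9 control 3, to 213 and 209 without WM9 control 1, to 223 and 198 without Hs294T control 2 and to 186 and 163 without Hs294T control 3, and without Hs294T control 1 it was 915 and 468. With near-identical pairs summed it was 108 and 115. Because the control groups were this alike and no row has a gene name, the line labels of the libraries could not be checked. Every comparison that uses the controls, here and below, therefore holds for libraries as labelled.

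Features that separated the resistant lines mostly did not separate the controls. Of the 7903 features called between the resistant groups, 440 or 5.57% were also called between the controls, beside the 3.86% of all tested features called there. Those 440 are 61.2% of the 719 called between the controls, beside a background of 42.5% between the resistant groups. Of the 440, 195 had the same direction and 245 the opposite. Over features called between the resistant groups, the median absolute log2 difference was 1.62 in the resistant and 0.38 in the control libraries. Over all tested features it was 0.75 and 0.37. The resistant and control differences were nearly unrelated across the 18615 features (Pearson r -0.04, Spearman rho -0.13), a description over features that are not replicates. Of 6112 features called at least 2-fold apart between the resistant lines, 166 were called at least 2-fold apart in the same direction between the controls.

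**Figure D3:**
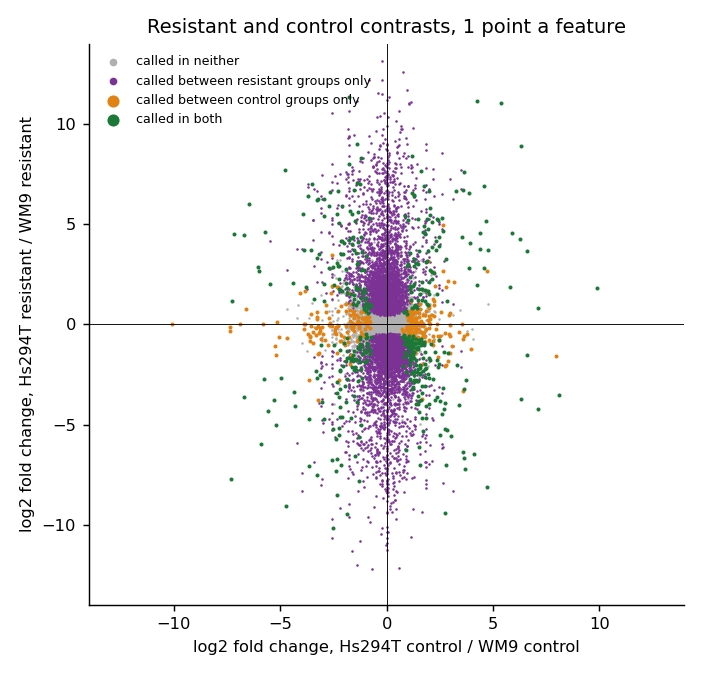
Log2 fold change of Hs294T over WM9 in resistant libraries (y axis) against that in control libraries (x axis), 1 point a feature, coloured by the contrast in which it was called. The points form a tall narrow cloud, and the 440 features called in both contrasts (green) lie in all 4 quadrants, 195 with the same sign and 245 with opposite signs.

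The difference of the contrasts was tested directly as an interaction. It passed for 6194 features, 33.3% of those tested, 2918 with a higher and 3276 with a lower Hs294T-to-WM9 ratio in resistant than in control libraries (edgeR quasi-likelihood test, adjusted p below 0.05). The interaction contains the resistant libraries of the main comparison, so the counts are not independent. All 4 named features passed it. Row71214 had a control difference of -0.20 (SE 0.40, edgeR adjusted p = 0.829) and an interaction of 13.33 (SE 0.73, edgeR adjusted p = 1.54e-08). For row63716 the control difference was -0.29 (SE 0.40, edgeR adjusted p = 0.74) and the interaction -2.39 (SE 0.53, edgeR adjusted p = 0.00354).

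The mean of the control groups was used as a reference point for each resistant group. This was done for 5734 features called at least 2-fold apart between the resistant groups and not called between the controls. That choice of features assumes that the line labels of the controls are right. The mean itself is the same for any split of the controls into equal groups. A resistant group counted as apart when its mean log2 CPM lay more than 2-fold from the mean of the control groups. The features were chosen through the same resistant libraries, so these counts are a description and carry no test.

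Resistant WM9 was more often the line that stood apart. In 1994 features, 34.8%, WM9 resistant alone was apart from the controls, and in 1380, 24.1%, Hs294T resistant alone was. Both lines were apart in opposite directions in 418 features (7.29%) and in the same direction, by different amounts, in 1338 (23.3%). Neither passed the margin in 604 (10.5%). Over the 5734 features, the median absolute distance from the controls was 1.53 on the log2 scale in WM9 resistant and 1.16 in Hs294T resistant libraries, and Hs294T resistant was the nearer group in 3376 of them. WM9 alone remained the more frequent class when any library was left out, with 1784 to 2278 features against 1287 to 1563 for Hs294T alone. The margin takes no account of the spread within a group, which was wider in WM9 resistant libraries (median SD of log2 CPM 0.362 against 0.167). Whether that spread adds to the WM9 counts was not tested.

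The directions relative to the controls differed by class. Among features higher in Hs294T, 832 lay above the controls in Hs294T alone, by a median of 2.39 on the log2 scale, and 926 lay below the controls in WM9 alone, with a median of -1.94. Among features lower in Hs294T, 548 were below the controls in Hs294T alone, with a median of -1.74, and 1068 were above them in WM9 alone, with a median of 1.98. In Hs294T alone, levels above the controls were thus more frequent than levels below, at 832 against 548, and remained so under upper-quartile factors, at 881 against 489. In WM9 alone the balance of 1068 above and 926 below depended on the scaling, since upper-quartile factors turned it to 919 and 1093. Of the 1338 features in which both lines moved the same way, 846 were above the controls in both and 492 below in both. In 545 of those 846 the level was higher in WM9, and in 301 it was higher in Hs294T. Opposite moves comprised 233 features above the controls in Hs294T and below them in WM9, and 185 the other way round.

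**Figure D4:**
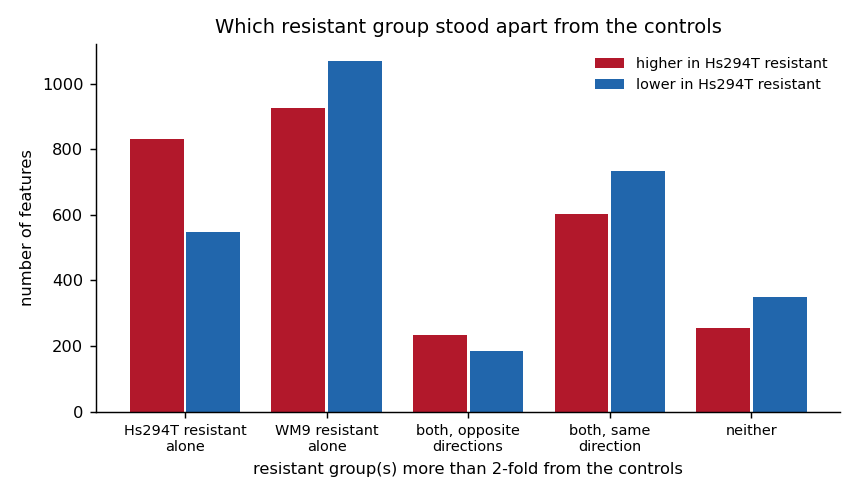
Number of features (y axis) by which resistant group lay more than 2-fold from the control mean (x axis), for features higher (red) or lower (blue) in Hs294T resistant than in WM9 resistant libraries. The tallest bar is the 1068 features lower in Hs294T in which WM9 resistant alone stood apart, and the bars for opposite directions are the lowest, at 233 and 185.

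Features that were neighbours in the table tended to differ in the same direction between the resistant lines. The tested features were cut, in row order, into 93 blocks of 200, and the median log2 difference of each block was taken. The order of the rows was not interpreted. Block medians ranged from -1.13 to 0.877 between the resistant groups, with an SD of 0.372, and from -0.494 to 0.480 between the controls, with an SD of 0.188. In 10 blocks the resistant median was above 0.5 and in 7 below -0.5. No control block passed 0.5 either way, and 11 passed 0.3. Differences over all tested features were also smaller in the controls, with a median absolute log2 difference of 0.37 against 0.75. Control medians ran in stretches of a single sign too. From row 1884 to row 8680 all of them were negative, between -0.107 and -0.494. In 54 of the 93 blocks the median had the same sign in all 9 pairs of resistant libraries. Across blocks the resistant and control medians were nearly unrelated (Pearson r 0.0323, Spearman rho 0.08, n = 93 blocks of the same libraries, given as a description).

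The most one-sided stretch ran from row 44250 to row 44721. Its 200 tested features had a median log2 difference of -1.13, with 136 called lower and 8 called higher in Hs294T, against 42.5% called in either direction over all features. In the controls the same block had a median of 0.264. The range over the 9 pairs of resistant libraries was -1.40 to -0.548. Relative to the controls, the block's median was -0.451 in Hs294T resistant and 0.543 in WM9 resistant libraries, so the lines lay on different sides. The preceding blocks, from row 42344 to row 43193 and from row 43194 to row 44247, had medians of -0.758 and -0.740, with 91 and 96 features lower and 20 and 15 higher. In the first of these WM9 resistant was the group off the controls (0.755 against 0.0855 in Hs294T), and in the second Hs294T resistant was (-0.553 against 0.114 in WM9).

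Other stretches favoured Hs294T. From row 69371 to row 70035 the median was 0.877, with 92 features higher and 22 lower, and the pairs of resistant libraries gave 0.707 to 0.939. The adjoining blocks from row 63450 to row 64079 and from row 64080 to row 64756 had medians of 0.765 and 0.772, with 87 and 82 features higher and 11 lower in each. In the second of these Hs294T resistant lay at 0.568 and WM9 resistant at -0.121 relative to the controls. From row 73278 to row 74159, where the median was 0.616, both resistant groups lay above the controls, at 1.25 in Hs294T and 0.498 in WM9. Without WM9 resistant 2, blocks above 0.5 numbered 17 in place of 10, and blocks below -0.5 numbered 7 to 10 when any of the resistant libraries was left out.

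**Figure D5:**
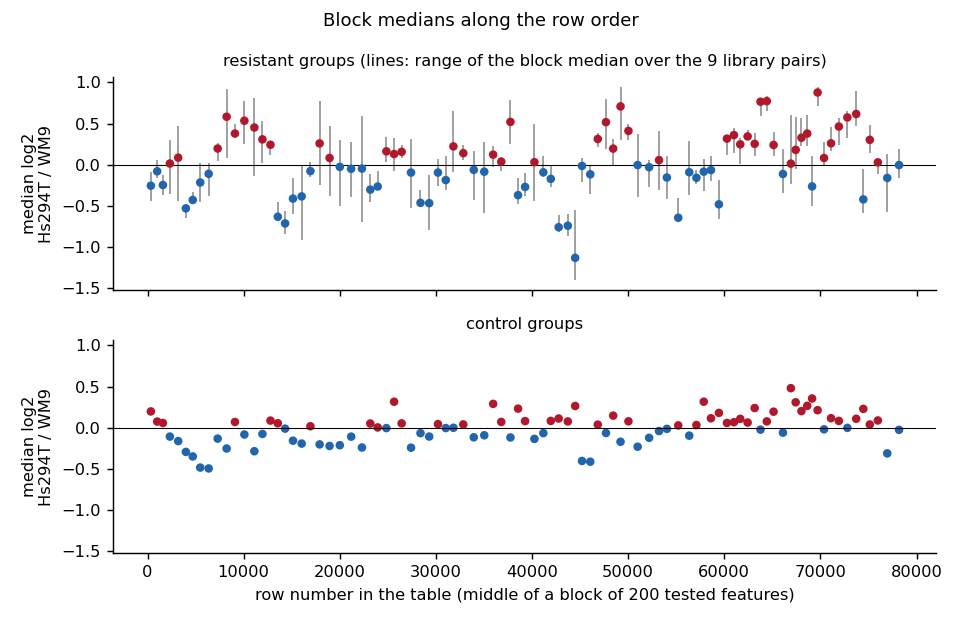
Median log2 ratio of Hs294T over WM9 (y axis) in blocks of 200 tested features, by row number in the table (x axis), for resistant libraries (upper panel) and control libraries (lower panel). Points are block medians from the fit and grey lines the range over the 9 library pairs, computed from log2 CPM with a prior count of 2. Medians run in stretches of a single sign in both panels. Resistant medians reach -1.13 and 0.877, while those of the controls stay within -0.494 and 0.480.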

How the data were processed

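Per the labels' protocols, RNA taken up in TRIzol was made into 12 stranded mRNA libraries and sequenced. The authors deposited raw read counts without normalization, 1 column per library. STAR 2.7.11b, Subread 2.0.8 with featureCounts, fastp 0.24.0, FastQC 0.12.1 and the build GRCh38 are listed, with no role for each, per the submitters' processing notes. Neither the annotation nor the strandedness of counting is stated in the labels, so features that overlap or share reads were not told apart.

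Features passing filterByExpr (minimum count 10) entered 1 fit of 4 groups and 12 libraries in edgeR 4.0.16 (R 4.3.3, limma 3.58.1), with 8 residual degrees of freedom and TMM scaling. Features are called at a two-sided adjusted p below 0.05. A standard error is the absolute log2 difference over the square root of F, and 95% intervals use its t quantile. Log2 CPM used a prior count of 2. Counting intervals and the floor of 3 counts cover counting error only. Alternatives changed the scaling, filter, threshold, libraries and tool (DESeq2 1.42.0). The comparison, features, classes and tests were chosen with earlier results of these data known. In each direction, the named features are the called one of largest fitted fold change and the called one of largest difference in mean CPM. They were taken among features without overlap and with at least 10 CPM in the higher group.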

Additional observations from a re-analysis of the deposited data

Results flagged for a closer look

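The Hs294T-to-WM9 difference was not the same in resistant as in control libraries in 6194 features, 33.3% of those tested. This came from a test of the difference between the resistant and the control contrasts (edgeR quasi-likelihood test, adjusted p below 0.05). It holds for libraries as labelled, and adaptation to the drugs and separate culture cannot be told apart in it. The named features were among them. On the log2 scale, the resistant contrast exceeded the control contrast by 13.33 in row71214 (SE 0.73, edgeR adjusted p = 1.54e-08) and by 11.94 in row48063 (SE 0.99, edgeR adjusted p = 6.47e-07). It lay below the control contrast in row75529, with a difference of -11.54 (SE 1.10, edgeR adjusted p = 7.11e-06) that rests on 0 counts in Hs294T resistant and few in control libraries. In row63716 the difference was -2.39 (SE 0.53, edgeR adjusted p = 0.00354). These features were chosen for their difference between the resistant groups, which is part of this test. No cause was tested.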

How the results depend on the processing

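The numbers of features higher and lower between the resistant groups stayed within 1.5 times 3859 and 4044 in 22 of 23 alternatives each, and the test against a 2-fold difference gave 1748 and 1778. Leaving out a library gave 3040 to 4211 higher and 3223 to 4457 lower. With the replicate number as a block they were 3714 and 3848, and the block moved no count by over 1.5 times. Same-numbered libraries were not taken as paired. Their deviations from group means correlated at 0.63, 0.58 and -0.026 between the resistant groups. Hs294T resistant 1 and Hs294T resistant 2 correlated best with the WM9 resistant library of their own number, and Hs294T resistant 3 with WM9 resistant 2. These values do not settle whether libraries were paired, since Hs294T resistant 2 and 3 were nearly identical. Keeping features of 5 CPM or more in 3 libraries gave 1771 and 1778 features at least 2-fold higher and lower, in place of 3027 and 3085. All 4 named features kept their direction and an adjusted p below 0.05 in the 92 alternatives, 23 each. The alternative with a threshold of 0.01 leaves their fit unchanged. The features were chosen for large differences in these same libraries, so this shows only that the processing did not matter for them. Between the controls, 390 higher and 329 lower became 236 and 215 in a fit of the controls alone, 151 and 126 at an adjusted p below 0.01, and 108 and 115 with near-identical pairs summed. DESeq2 called 718 higher there, and leaving out a library gave 132 to 915 and 141 to 468. The interaction, 2918 and 3276, became 1623 and 1962 at an adjusted p below 0.01 and 1878 and 1949 with pairs summed. Margins of 1.5-fold and 3-fold moved the features with opposite moves from 418 to 975 and 164 and those with neither group apart from 604 to 18 and 1705, and the 3-fold margin moved those with the same direction from 1338 to 790. A wider margin places fewer features by construction. Features higher at 100 CPM or more numbered 166 to 313 without a library, beside 288. Blocks above 0.5 numbered 7 to 17 without a resistant library, beside 10. The r across blocks was -0.0189 with blocks of 100 and 0.203 with blocks of 400. The cause of the other shifts was not tested. The fit of the controls alone and the refits of abundance classes, placements and block counts were chosen after seeing the data. The depth limits features below 1 CPM most, where 3 counts correspond to 0.126 to 0.230 CPM.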
